A study of Mus musculus with 24 samples.

Results

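The transcripts of 10 genes were followed in mouse colon: the receptor tyrosine kinase Met with its ligand Hgf, the receptors Egfr, Erbb2 and Erbb3, and the EGF family ligands Areg, Ereg, Hbegf, Tgfa and Btc. The members were every probe of a one-color Agilent array whose RefSeq accession belonged to one of these genes, which gave 16 of the 56605 probes. Met, Hgf, Erbb2 and Btc had 2 probes each, Egfr had 3, and the other genes had 1. The study asked whether sex and ovarian hormones alter the response of the colon to dietary fat during colitis-associated tumorigenesis. C57BL/6J mice, 7 weeks old at purchase, were sham-operated males (M), sham-operated females (F) or ovariectomized females (F(OVX)), kept for 14 weeks on food with 10 (low-fat diet, LFD) or 45 (high-fat diet, HFD) kcal% fat. Every group, LFD groups included, received 1 injection of azoxymethane (AOM, 10 mg/kg) and 3 cycles of 1.5% dextran sulfate sodium (DSS) in drinking water, so there was no healthy colon for comparison. RNA came from pieces of colon of single mice, which the methods place in the distal colon. Each of the 6 groups held 4 arrays, of mice chosen by the authors for a body weight close to the group average.

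Met is the receptor of hepatocyte growth factor (HGF), which is made by stromal cells and drives migration and regrowth of the epithelium after injury. The ErbB receptors answer to ligands made as membrane-bound precursors and released by proteases of the ADAM family. EGFR binds amphiregulin (Areg), epiregulin (Ereg), HB-EGF (Hbegf), TGF-alpha (Tgfa) and betacellulin (Btc), whereas ERBB2 has no known ligand of its own and ERBB3, with little kinase activity, signals as its partner. In the colon these pathways act through RAS-ERK and PI3K-AKT signaling in wound repair after colitis and in tumor growth.

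The promoters of Met and Areg are shown because a Met probe gave the only member call between the diets and Areg belonged to the only pair of members that varied together past the test. Each line is the 250 bases before the transcription start from RefSeq (GRCm38.p6, plus strand for both), with matched letters in capitals. The Met window lies at chr6:17463707-17463956 and the Areg window at chr5:91139349-91139598.
Met: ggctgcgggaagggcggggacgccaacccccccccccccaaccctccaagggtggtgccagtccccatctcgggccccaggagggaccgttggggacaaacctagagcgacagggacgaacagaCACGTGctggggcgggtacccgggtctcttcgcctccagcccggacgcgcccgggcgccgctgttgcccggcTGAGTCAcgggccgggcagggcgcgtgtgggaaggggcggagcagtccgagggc
Areg: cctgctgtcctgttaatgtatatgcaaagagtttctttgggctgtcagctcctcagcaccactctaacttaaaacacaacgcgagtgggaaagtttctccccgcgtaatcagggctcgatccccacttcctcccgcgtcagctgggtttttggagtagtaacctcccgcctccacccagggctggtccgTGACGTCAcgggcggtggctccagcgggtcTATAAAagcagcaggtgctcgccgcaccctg
The letters searched on both strands were TGACGTCA (the cAMP response element, CRE), TGANTCA (AP-1, the binding sequence of FOS-JUN dimers), CACGTG (E-box) and TATAAA (a core promoter box). These letters occurred in 1.55%, 6.75%, 6.02% and 12.4%, respectively, of 32851 such windows. The Areg window held TGACGTCA from 61 to 54 bases and TATAAA from 31 to 26 bases before the start, and the Met window held TGAGTCA from 54 to 48 bases and CACGTG from 126 to 121 bases before it. The windows of Hgf, Btc, Tgfa, Egfr and Erbb2 held none of the letters searched.

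Values are log2 signals after quantile normalization over the 24 arrays, on which 1 unit is a doubling. Per array, 40.5% to 61.9% of probes rose clearly above background, and arrays of 1 group correlated at r = 0.939 to 0.988. A slide carried the mice of 1 sex or surgery only, its rows the diets, so sex or surgery cannot be told apart from slide, nor diet from row. M + LFD replicates 1 and 2 stood apart in the homeobox genes that mark position along the colon. Hoxb13, a gene of the most distal gut, was at 2.18 and 5.04 on these arrays and at 12.58 to 14.79 on the other 22. The mean log2 signal of 7 distal genes minus that of 9 proximal genes, called the regional score here, was -6.48 and -4.76 on them and -0.32 to 3.77 elsewhere, and results that include M + LFD are also given without both.

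The second probe of Met, the HGF receptor, was the only member probe that differed between the diets past the thresholds, and only in males. A probe was called where the fold change was at least 1.5 and limma's unadjusted p was below 0.05. One of 14 tested member probes was called in males, beside 4.23% of all probes, 0 of 14 in females, beside 1.34%, and 0 of 13 in ovariectomized females, beside 2.11%. Counts this small cannot be told apart from these shares. With the brightest probe of each gene, 0 of 10 members were called in males, beside 4.38% of all genes. No probe of the array passed a Benjamini-Hochberg adjusted p of 0.05 between the diets in limma, against 1594, 900 and 877 probes with an unadjusted p below 0.05 in M, F and F(OVX). The smallest adjusted p of a member probe was 0.806, 0.988 and 1.

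The second Met probe read 7.46, 7.21, 7.62 and 7.33 in M + LFD and 8.68, 7.99, 8.05 and 7.76 in M + HFD. All 4 M + HFD arrays lay above all 4 M + LFD arrays, and above the other 20 arrays of the study, which reached 7.73. Of 21160 probes well above background and measured on every array, 0.0898% had M + HFD above all other arrays, a pattern looked for after its values were seen. The difference in males was 0.71 on the log2 scale (1.64-fold, SE 0.21, 95% confidence interval 0.23 to 1.20, limma p = 0.00871, exact permutation p = 0.0286, the smallest that 4 against 4 arrays allow). In F + LFD the same probe read 7.54, 7.70, 7.26 and 7.47 and in F + HFD 7.62, 7.67, 7.49 and 7.35, a difference of 0.03 (-0.29 to 0.36). In ovariectomized females it averaged 7.58 ± 0.10 on LFD and 7.48 ± 0.19 on HFD (SD, n = 4), a difference of -0.10 (-0.43 to 0.22). Female groups therefore overlapped between the diets with or without ovaries.

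The first Met probe, which reads the same RefSeq transcript, separated the male groups from the other side. It read 9.88, 9.95, 10.14 and 9.99 in M + LFD and 10.43, 10.50, 10.15 and 10.61 in M + HFD. The M + LFD arrays lay below all other 20 arrays of the study (10.15 to 10.63), although the highest of them missed the next array by 0.01. Of the 21160 probes, 0.0756% had M + LFD below every other array, again a pattern looked for after its values were seen. The diet difference in males was 0.43 (1.35-fold, SE 0.15, 0.10 to 0.76, limma p = 0.0169, exact permutation p = 0.0286), under the fold threshold. It was -0.01 (-0.29 to 0.27) in females and -0.05 (-0.38 to 0.27) in ovariectomized females. Over the 24 arrays the deviations of the Met probes from their group means correlated at r = 0.08, whereas the probes of Erbb2 correlated at 0.95 and those of Egfr at 0.64 to 0.84. The probes of Met thus shared the direction of the male difference but not the variation between mice of 1 group.

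**Figure D1:**
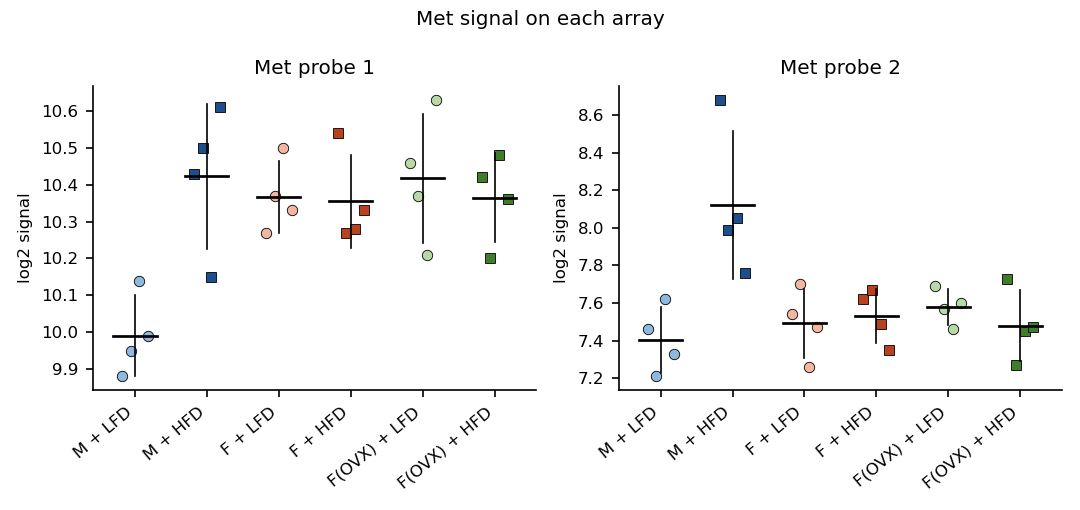
Log2 signal (y axis) of the first (left) and second (right) Met probe on each array, by group (x axis). Points are single mice (circles LFD, squares HFD), long bars the group mean and vertical bars 1 SD on either side. On the left the 4 M + LFD arrays, 9.88 to 10.14, lie below all other arrays, and on the right the 4 M + HFD arrays, 7.76 to 8.68, lie above all other arrays.

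The diet effects themselves were then compared between the sexes. For a difference of effects, the exact permutation shuffled the diets within both groups. Its null is therefore no diet effect in either group, not equal effects, whereas limma tested the difference itself. For the second Met probe, the effect in M exceeded that in F by 0.68 (SE 0.23, limma p = 0.00749, adjusted p = 0.969, exact permutation p = 0.0392) and that in F(OVX) by 0.82 (SE 0.23, limma p = 0.00174, adjusted p = 0.537, exact permutation p = 0.00776). It was the 1 member probe of 14 called in each of these comparisons, beside 3.22% of all probes for M against F and 6.15% for M against F(OVX). The first probe gave 0.44 against F (SE 0.17, limma p = 0.0161, exact permutation p = 0.029) and 0.49 against F(OVX) (SE 0.17, limma p = 0.00886, exact permutation p = 0.0241), both under the fold threshold. Both comparisons share the male arrays. Between F(OVX) and F, the diet effects on the Met probes differed by -0.04 (SE 0.17) and -0.14 (SE 0.23), and 0 of 14 member probes were called beside 1.73% of all probes.

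The male Met difference was not called in every setting. Without M + LFD replicates 1 and 2 the second probe still differed by 0.64, with a limma p of 0.058, and with the regional score as a covariate by 0.57, with a limma p of 0.0815. Without M + HFD replicate 1, the highest array, it differed by 0.53, below the fold threshold, with a limma p of 0.0144. The first probe differed by 0.36 without M + LFD replicates 1 and 2, with a limma p of 0.108. The contrasts of the second probe with F and with F(OVX) were called without those replicates too, at 0.61 (SE 0.26) and 0.75 (SE 0.26). The contrast with F fell below the fold threshold without M + HFD replicate 1 (0.49), and with normexp background correction so did the contrasts with F (0.53) and F(OVX) (0.56). In males all 3 tested distal genes were higher and all 3 tested proximal genes lower on HFD, with 2 of each called beside 4.38% of all genes, and the part of colon region in the Met difference was tested only by these fits. Epithelial marker genes, whose mean log2 signal was 13.56 to 14.16 in M + LFD and 13.54 to 14.14 in M + HFD, overlapped between the diets, although 1 of 13 was called, the intestinal transcription factor Cdx2 (-1.77, SE 0.52, exact permutation p = 0.0571). Markers of keratinized squamous epithelium did not overlap, although the ranges nearly touched. Their mean log2 signal was 5.76 to 6.35 in M + LFD and 6.37 to 6.96 in M + HFD. This mean covered all 8 markers, dim ones included. On each array 4 to 6 of them were above background in M + LFD and 5 or 6 in M + HFD. Every other list of cell type markers overlapped between these groups. Whether the separation of the squamous markers reflects cell content was not tested. Of the 8 squamous markers 5 were bright enough to test, and these were higher on HFD (median 0.69) with 0 called. The part of squamous and other cell type content in the Met difference was not tested. In a piece of whole colon, fewer cells of a type and less RNA per cell cannot be told apart.

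Egfr, the common receptor of the EGF-like ligands, did not pass the thresholds between the diets in M, F or F(OVX). Its first probe averaged 10.17 ± 0.15 in M + LFD and 10.14 ± 0.32 in M + HFD, 10.14 ± 0.22 and 10.10 ± 0.20 in the F groups, and 9.87 ± 0.20 and 10.02 ± 0.36 in the F(OVX) groups (SD, n = 4). The male difference of -0.02 had an interval of -0.45 to 0.40, so a change of 1.5-fold in either direction lay outside it on this probe. The other probes differed by 0.19 (-0.21 to 0.59) and -0.16 (-0.63 to 0.30) in males, intervals that reach a 1.5-fold change. In ovariectomized females the difference was 0.15, 0.37 and 0.46 on its 3 probes (exact permutation p = 0.6, 0.114 and 0.229), and the third was called only when F(OVX) + LFD replicate 1 was left out, at 0.70.

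Erbb2, the partner receptor without a ligand, varied more between male mice than between diets. Its first probe ran from 11.82 to 12.69 in M + LFD and from 11.46 to 13.09 in M + HFD, against 12.01 to 12.25 in F + HFD. The diet difference was -0.08 in M (-0.86 to 0.70), -0.13 in F (-0.47 to 0.21) and -0.08 in F(OVX) (-0.57 to 0.41). The groups overlapped in each of the 3 comparisons.

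Erbb3, which carries the docking sites for PI3-kinase, read 7.03, 7.10, 6.30 and 6.22 in M + LFD and ran from 5.28 to 7.18 in M + HFD. Its M + LFD values above 7 came from the replicates with the low regional score. The diet difference was -0.43 in M (SE 0.40, exact permutation p = 0.429), 0.29 in F (SE 0.25, exact permutation p = 0.343) and -0.24 in F(OVX) (SE 0.20, exact permutation p = 0.257). None was called, and the effect in M differed from that in F by -0.72 (exact permutation p = 0.182), which was called at -1.04 when M + HFD replicate 4 was left out.

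Hgf, the Met ligand, was near the detection limit. Its first probe was well above background on 19 of 24 arrays and its second on 14. On the first probe M + LFD read 5.02, 4.52, 5.79 and 5.39 and M + HFD 5.03, 6.47, 5.22 and 5.65, an overlap with a difference of 0.41 (-0.42 to 1.25). On the same probe the F groups averaged 5.54 ± 0.76 on LFD and 5.52 ± 0.59 on HFD (SD, n = 4), a difference of -0.02 (-0.97 to 0.93). In F(OVX) + HFD only 1 of 4 arrays was above background on either probe.

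The second Hgf probe did not reach background on all arrays of any group and was left out of the limma tests. Its values were 5.43, 5.58, 5.95 and 5.35 in F + HFD (3 of 4 arrays above background) and 4.55, 3.37, 4.15 and 5.15 in F(OVX) + HFD (1 of 4). Every F + HFD array lay above every F(OVX) + HFD array, and F(OVX) + HFD differed by -1.27 on the log2 scale (exact permutation p = 0.0286). It was the only member probe of 16 without overlap there, and the share of all probes without overlap was not computed. Of all tested probes 2.41% were called there, a different measure that leaves this probe out. Without the filter on dim probes limma called the second Hgf probe, with an adjusted p of 0.965. The first probe had the same sign, -0.62, with an exact permutation p of 0.0857. Between the diets the second Hgf probe differed by 0.85 in M, 0.91 in F and -0.61 in F(OVX). The exact permutation p was 0.114, 0.114 and 0.314, and the diet groups overlapped in each. Without the filter on dim probes the diet difference in F was called, and those in M and F(OVX) were not.

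Areg, a ligand induced during epithelial repair, spread widely within groups. It read 8.66, 6.97, 7.75 and 8.54 in M + LFD and 9.45, 7.25, 9.17 and 8.66 in M + HFD. M + HFD replicates 1 and 3 lay above every M + LFD array, replicate 4 level with the highest of them and replicate 2 near the lowest. The difference of 0.65 (1.57-fold, SE 0.53, -0.56 to 1.87, exact permutation p = 0.286) was within the spread between mice, and became a call at 1.11 when M + HFD replicate 2 was left out.

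In females Areg read 9.11, 8.37, 7.57 and 7.92 on LFD and 8.05, 7.98, 6.32 and 8.72 on HFD, a difference of -0.48 (-1.67 to 0.72). In ovariectomized females it averaged 8.57 ± 0.64 and 8.50 ± 0.38 (SD, n = 4), a difference of -0.07 (-0.81 to 0.66). The signs of M and F were opposite, but the effects differed by 1.13 with an SE of 0.73 (exact permutation p = 0.206).

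Hbegf, the heparin-binding ligand of EGFR, gave 10.45, 9.10, 9.80 and 9.63 in M + LFD and 10.86, 9.38, 10.68 and 9.81 in M + HFD. The diet difference was 0.44 in M (-0.45 to 1.33), -0.24 in F (-1.13 to 0.65) and 0.21 in F(OVX) (-0.56 to 0.97). Within the F(OVX) + HFD group replicate 1 read 9.02 and the others 10.22 to 10.41. All pairs of diet groups overlapped.

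Ereg, a ligand of EGFR and ERBB4, had its highest group means in males. It averaged 7.67 ± 0.70 in M + LFD, 7.41 ± 0.30 in M + HFD, 6.94 ± 0.63 in F + LFD, 6.78 ± 0.63 in F + HFD, 6.46 ± 0.59 in F(OVX) + LFD and 6.75 ± 0.62 in F(OVX) + HFD (SD, n = 4). Neighboring means in this order did not differ beyond their spread. M exceeded F by 0.72 on LFD (exact permutation p = 0.171) and by 0.63 on HFD (exact permutation p = 0.143), without a call, and the diet differences were -0.26, -0.16 and 0.29 in M, F and F(OVX).

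Tgfa, an EGFR ligand of the surface epithelium, was dim and above background on 22 arrays. It read 5.41, 5.42, 6.20 and 7.04 in M + HFD and 5.36, 4.97, 4.91 and 5.86 in F + HFD. The M + HFD mean exceeded the F + HFD mean by 0.74 (1.67-fold, SE 0.35, limma p = 0.0486, adjusted p = 0.329, exact permutation p = 0.143), although the groups overlapped. Tgfa passed the filter here only through M + HFD, the higher group, so the filter favored this direction. It was above background on 4 of 4 arrays in M + HFD and on 3 of 4 in F + HFD. Leaving out 1 array at a time, the call remained in 11 of 24 fits, with differences from 0.40 (without M + HFD replicate 4, its highest array) to 0.94 (without M + HFD replicate 1). Between the diets Tgfa differed by -0.14 in M, -0.39 in F and 0.17 in F(OVX), none of them called.

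Btc, betacellulin, was read by 1 usable probe, well above background on 23 arrays. The other Btc probe was above background on 0 arrays, so no fold is given for it. The usable probe ran from 5.67 to 6.43 in M + LFD and 5.61 to 7.10 in M + HFD, from 5.75 to 6.21 and 5.61 to 6.05 in the F groups, and from 5.67 to 6.77 and 5.48 to 6.87 in the F(OVX) groups. The 3 diet differences of 0.21, -0.22 and -0.04 lay within this spread.

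**Figure D2:**
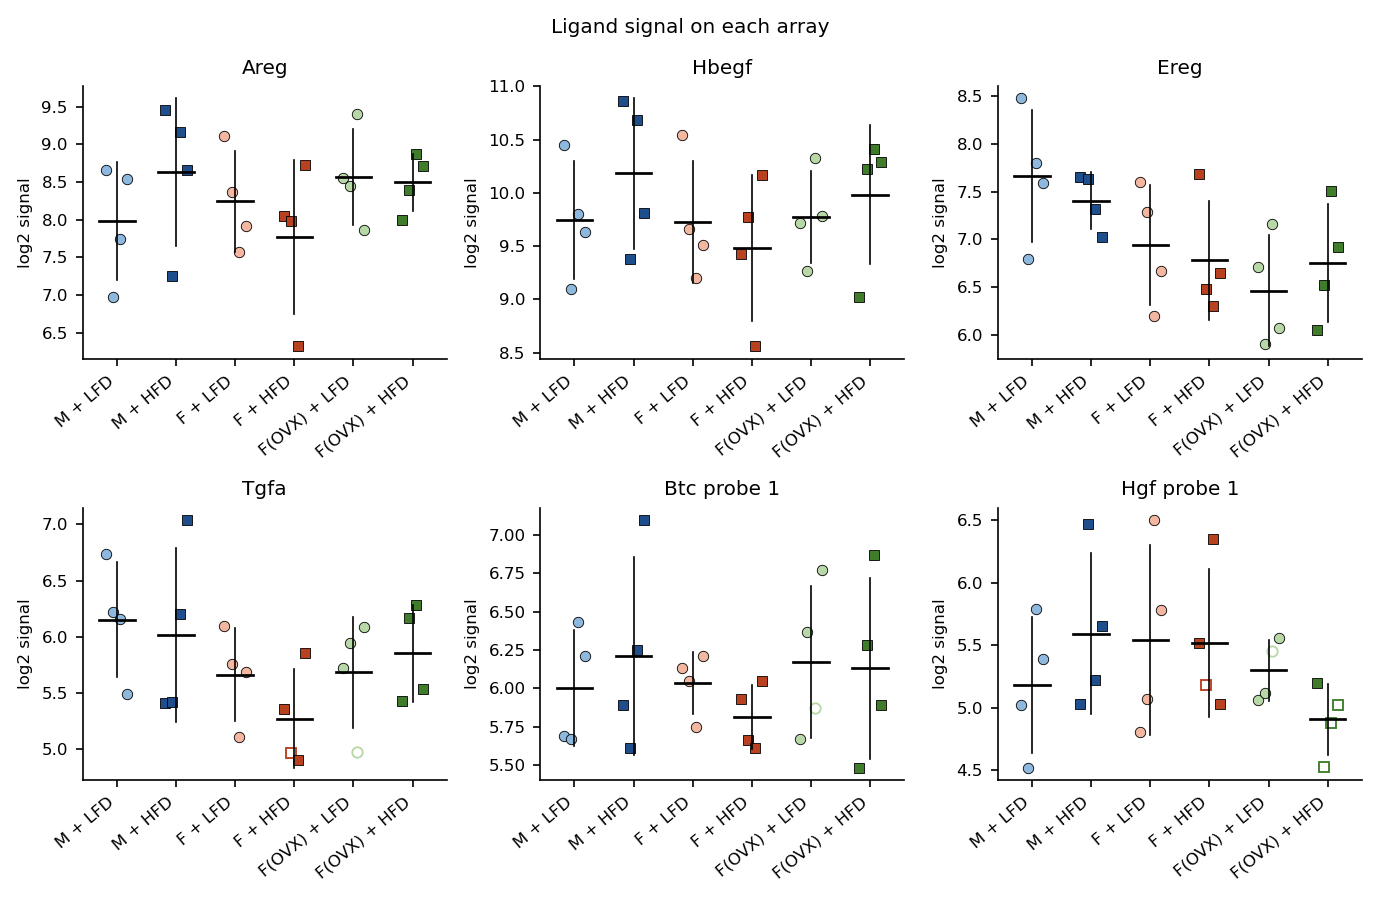
Log2 signal (y axes, one scale per panel) of Areg, Hbegf, Ereg, Tgfa and the brighter probes of Btc and Hgf on each array, by group (x axes). Points are single mice (circles LFD, squares HFD, open where not well above background), long bars the group mean and vertical bars 1 SD on either side. The diet groups overlap in each panel, and 1 M + HFD array lies low for Areg at 7.25.

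**Figure D3:**
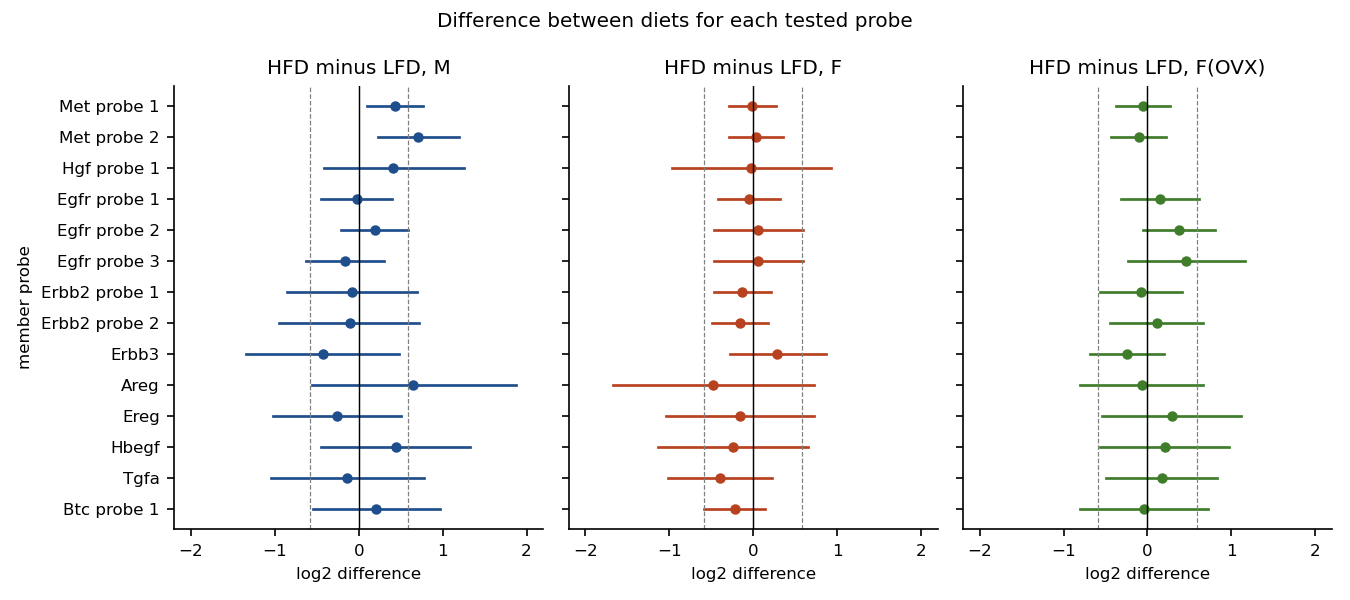
HFD minus LFD log2 difference (x axis) of each member probe tested in at least 1 comparison (y axis), for M, F and F(OVX). Points are limma estimates, bars 95% confidence intervals and dashed lines a 1.5-fold change. Only the intervals of the Met probes in M, 0.10 to 0.76 and 0.23 to 1.20, exclude 0.

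The levels of the groups on the same diet were compared next. In M against F, 0 of 14 member probes were called on LFD, beside 4.77% of all probes, and 2 of 14 on HFD, beside 8.16%. The latter were Tgfa and the second Met probe, which was higher in M + HFD than in F + HFD by 0.59 (1.5-fold, SE 0.16, limma p = 0.0015, adjusted p = 0.107, exact permutation p = 0.0286). On the first Met probe this difference was 0.07 (exact permutation p = 0.6). The difference of the second probe on HFD fell below the fold threshold without M + HFD replicate 1 (0.40) and when replicate 3 or 4 of F + HFD was left out (0.57 and 0.53). On LFD the first Met probe differed by -0.38, lower in M (SE 0.12, limma p = 0.00498, adjusted p = 0.289, exact permutation p = 0.0286), below the fold threshold. Without M + LFD replicates 1 and 2 this difference was -0.30 (SE 0.15). The second probe differed on LFD by -0.09 (exact permutation p = 0.486), so on each diet only 1 of the Met probes separated M from F. In F(OVX) against F, 0 of 14 probes were called on LFD, beside 1.54%, and 0 of 13 on HFD, beside 2.41%. The Met probes differed there by at most 0.09.

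Members were next compared mouse by mouse, as deviations from the group mean over the 24 arrays with the brightest probe of each gene. Of 45 pairs, 1 passed a Benjamini-Hochberg adjusted permutation p of 0.05. Areg and Hbegf rose and fell together, with Pearson's r = 0.87 (permutation p = 1e-05, the smallest that 100000 shuffles can give, adjusted p = 0.00045) and Spearman's rho = 0.84 (permutation p = 5e-05, adjusted p = 0.0023). The relation was present on every slide, at r = 0.88 in M, 0.97 in F and 0.69 in F(OVX). Without the 2 arrays farthest in Areg r was 0.82, and without M + LFD replicates 1 and 2 it was 0.85. The same mice thus held the extremes of both ligands: F + HFD replicate 3 had the lowest Areg (6.32) and the lowest Hbegf (8.56) of all arrays, and M + HFD replicate 1 the highest of both (9.45 and 10.86).

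**Figure D4:**
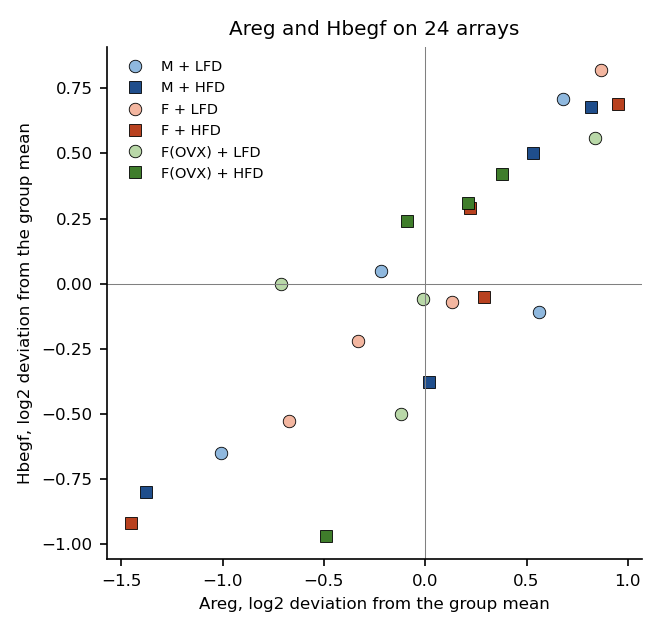
Deviation of Areg (x axis) and Hbegf (y axis) from the group mean on each of 24 arrays, in log2 units. Colors mark the groups, circles LFD and squares HFD. The points follow a rising line over the 6 groups, with r = 0.87.

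Ereg leaned the same way, at r = 0.58 with Areg (adjusted permutation p = 0.071) and 0.63 with Hbegf (adjusted permutation p = 0.071), and Tgfa and Btc correlated at 0.65 (adjusted permutation p = 0.071). These pairs did not pass the correction. Hgf ran opposite to Erbb3 (r = -0.64, adjusted permutation p = 0.074), Areg (r = -0.61, adjusted permutation p = 0.077) and Hbegf (r = -0.58, adjusted permutation p = 0.077), also without passing. Met correlated with no member beyond r = 0.42, its value with Hgf.

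**Figure D5:**
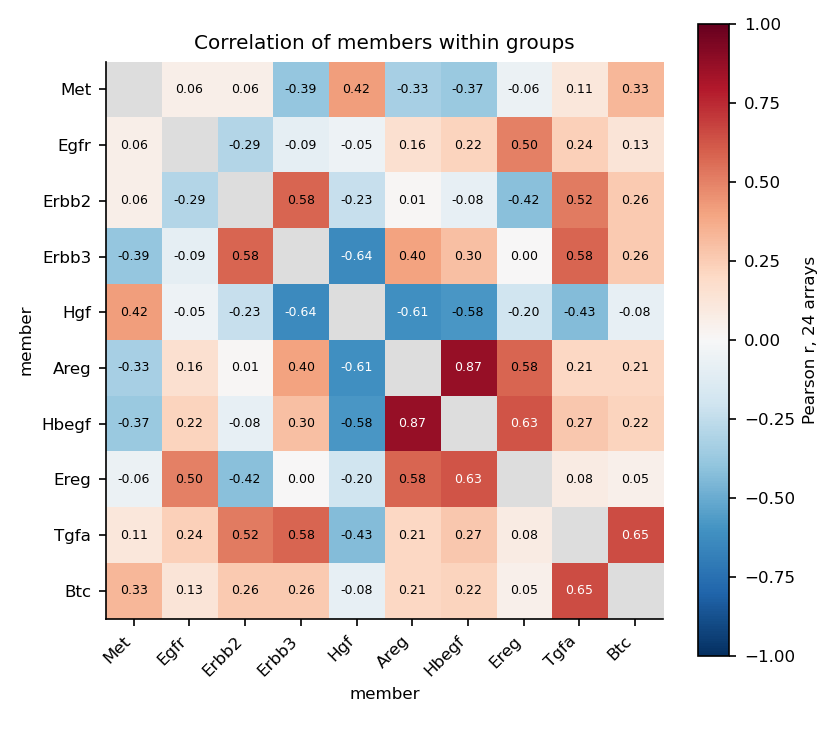
Pearson's r between members over 24 arrays, as deviations from the group means, with rows and columns ordered as receptors, Hgf and EGF family ligands. Red marks positive and blue negative r, and the value is written in each square. Areg with Hbegf, at 0.87, is the only pair that passed the correction over 45 pairs.

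The genes most like the members other than Erbb2 over the 24 arrays are given as a description, with Pearson's r of the log2 signals over all groups, among 11878 genes well above background on every array (11879 for Hgf, Tgfa and Btc). For Areg the gene most alike was Hbegf (0.86), then Ssx2ip (0.73) and Klf10 (0.71), and for Hbegf it was Areg (0.86), then Alas1 and Pdzd8 (0.74 each). Met was followed by Niban2 (0.84), Ube3c (0.83) and Anxa3 (0.79). Hgf was followed by Pdpn (0.82), Vcan (0.81) and Osmr (0.81), which encode podoplanin, the matrix proteoglycan versican and the oncostatin M receptor. Erbb3 was closest to Snx13 (0.80), Egfr to Snx3 (0.76), Ereg to N4bp1 (0.84), Tgfa to Btnl5-ps (0.90) and Btc to Rbm7 (0.77). All such pairs share the same arrays, and their r includes differences between groups.

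Whether the members moved with the cellular makeup of the pieces was examined with 12 lists of cell type markers and a list of genes induced by ERK, as mean log2 signals, also taken as deviations from the group means. Of 130 pairs, 0 passed an adjusted permutation p of 0.05 for Pearson's r and 1 for Spearman's rho, Tgfa with epithelial markers (rho = 0.76, adjusted permutation p = 0.047). Areg and Hbegf correlated with the ERK-induced genes at 0.75 and 0.70 (adjusted permutation p = 0.058 for both). By slide, r was 0.92 in M, 0.53 in F and 0.73 in F(OVX) for Areg, and 0.94, 0.42 and 0.63 for Hbegf. Tgfa had Pearson's r of 0.71 with epithelial markers and -0.62 with B and T cell markers (adjusted permutation p = 0.058 for both), Erbb3 correlated with B and T cell markers at -0.60 (adjusted permutation p = 0.058), and Hbegf with myeloid markers at -0.59 (adjusted permutation p = 0.058). Hgf correlated at -0.65 with absorptive colonocyte markers (adjusted permutation p = 0.058). At an adjusted permutation p of 0.095, Hgf correlated with fibroblast markers at 0.63 and with epithelial markers at -0.65. The same adjusted p was reached by Egfr with goblet cell (0.60), Ereg with myeloid (-0.61) and Erbb3 with absorptive colonocyte markers (0.58). By slide, r of Hgf with fibroblast markers was 0.25 in M, 0.89 in F and 0.44 in F(OVX). The part of cell type content in the Areg and Hbegf relation was not tested.

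The rest of the pathway was described with lists of genes, each represented by its brightest probe. Among 20 tested ERK-induced genes in males, 5 rose and 2 fell on HFD, with a median difference of 0.42, beside 4.38% of all genes called and a median over all probes of 0.01. The largest were Mmp7, a matrix protease (-2.44, SE 0.73, exact permutation p = 0.0286), Fosb, an AP-1 subunit (1.79, SE 0.54, exact permutation p = 0.0286), Phlda2 (1.76, SE 0.48, exact permutation p = 0.0286) and Etv5, an ETS factor downstream of ERK (-1.39, SE 0.49, exact permutation p = 0.0857). In F 1 rose and 2 fell, beside 1.23% of all genes, with a median of -0.16. These were Etv4 (0.69) and the immediate-early genes Egr1 (-0.88) and Fos (-0.85). In F(OVX) 3 rose and 0 fell, beside 2.23% of all genes, with a median of 0.02: Etv5 (1.18), Egr1 (0.78) and Etv1 (0.63).

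The calls in the male list changed when the replicates with the low regional score were left out. Without these replicates 1 of the 20 genes rose (Phlda2, 1.25) and 1 fell (Epha4, -0.61), beside 4.17% of all probes, while the median stayed at 0.41. Fewer arrays also weaken the test, and the part of this in the lost calls was not tested. For the difference of the diet effects between M and F, 6 of 20 were called higher in M and 0 lower, with a median of 0.80 and beside 2.96% of all genes. Without those replicates 3 were called higher and 2 lower, beside 3.6% of all probes, with a median of 0.66. Egr1 was 1 of them in both fits, at 1.85 and 1.98.

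Upstream of the receptors, 2 of 9 tested genes of ligand shedding rose in males on HFD, beside 4.38% of all genes called: Rhbdl2, a rhomboid protease (0.91, SE 0.33, exact permutation p = 0.0571), and Adam15, a metalloprotease (0.66, SE 0.24, exact permutation p = 0.0571). Neither was called without M + LFD replicates 1 and 2. In F 0 of 9 were called, beside 1.23% of all genes, and in F(OVX) 1 of 9, beside 2.23%, where Adam8 fell (-0.69). Of 12 genes for HGF activation and the Met relative Mst1r, 1 fell in males, Cd44, a co-receptor of Met (-1.07, SE 0.28, exact permutation p = 0.0286), and it also fell without those replicates (-0.84, SE 0.34). In F 0 of 12 and in F(OVX) 0 of 11 were called.

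Downstream, 0 of 21 receptor adaptors and RAS-MAPK genes and 0 of 15 PI3K-AKT and STAT3 genes were called between the diets in M, F or F(OVX), with medians from -0.08 to 0.05. Of all genes 4.38% were called in M, 1.23% in F and 2.23% in F(OVX), and the counts in this paragraph stand beside these shares. Among feedback inhibitors 0 of 20 were called in M, 1 of 21 in F (Socs3, an inhibitor of cytokine signaling, -0.91) and 1 of 21 in F(OVX) (Cblb, a ubiquitin ligase, -0.62). The other ErbB receptors and ligands, among them Erbb4 and the neuregulins, had 3 of 7 genes bright enough to test and 0 called.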

How the data were processed

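Colon RNA of 24 mice, 1 array per mouse, was hybridized by the authors to one-color (Cy3) Agilent arrays. The deposited files hold the intensity of each spot from Agilent Feature Extraction (11.0.1.1, per the labels), background-subtracted and not normalized between arrays. The methods state log transformation and quantile normalization of gProcessedSignal, a t-test, and thresholds of 1.5-fold and a p-value of 0.05, with 5 animals per group; 4 per group are analysed here. Control spots and spots with outlier flags were left out, log2 intensity was quantile-normalized over the 24 arrays and spots of a probe were averaged (limma 3.58.1, R 4.3.3). Probes were kept for a comparison if well above background on every array of a compared group. lmFit and eBayes were fitted within M, F or F(OVX) for the diets and over all 24 arrays for differences of diet effects and for levels. Adjusted p-values cover all probes kept, and exact permutation tests were two-sided. Those for differences of diet effects shuffled the diets within both groups, so their null is no diet effect in either. Precision is limited by the number of arrays. No spot was saturated. Levels of different probes were not compared. Gene names came from accessions on the array matched to RefSeq tables, which named 58.3% of the 56605 probes, and the array design was built on mm9. Sex-linked transcripts matched the labelled sex of each array.

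Named genes were all members, at most 4 called genes of each pathway list per diet comparison, at most 3 genes most correlated with each member (those of Erbb2 are not reported here), and, chosen after their values were seen, Epha4, Cdx2 and Hoxb13. The members and lists were chosen with earlier results of these data known. Replicate numbers gave the column on the slide. Deviations of mice with the same number correlated at 0.26 to 0.58 in F, at -0.26 to 0.01 in M and at -0.07 to 0.33 in F(OVX). In F(OVX) replicate 2 was at -0.07 and the others at 0.25 to 0.33. The main diet tests and exact permutations did not pair the arrays by number, and the replicate block is an alternative that does. Alternatives were 75th percentile scaling, normexp (offset 50), other filters, 1 probe per gene, the methods' t-test, normalization of the 8 arrays alone, the replicate block, the regional score as a covariate, and leaving out arrays. Correlations with marker lists, and pathway lists without M + LFD replicates 1 and 2, were added after seeing the data. The procedures were tested on simulated data.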

Additional observations from a re-analysis of the deposited data

Results flagged for a closer look

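Hbegf read 9.02 on F(OVX) + HFD replicate 1, far from the other arrays of its group (10.22 to 10.41). The dim Btc probe read 4.21 on F(OVX) + HFD replicate 4 against 2.12 to 2.21 on the others, below background on all of them. Chance marks about 1 in 20 groups in this way, and 2 of 96 were marked. The diet effect on both Met probes was flagged because its difference between M and F or F(OVX) had an unadjusted limma p below 0.05. On the first probe it was larger in M than in F by 0.44 and than in F(OVX) by 0.49, and on the second probe by 0.68 and 0.82. Of all tested probes, 1081 of 28575 had such a p in M against F and 1959 of 26450 in M against F(OVX). The male arrays are shared by both comparisons, and no adjusted p passed 0.05.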

How the results depend on the processing

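Counts here are of member probes called. For HFD against LFD in M the count of 1 became 0 with normexp, with 1 probe per gene, with the regional score and without M + LFD replicates 1 and 2, and 2 with the replicate block, which added Areg (0.65). In F it was 0 and became 1 without the filter. For the diet effect in M against F it was 1 and became 0 with normexp and with 1 probe per gene, and 2 with the replicate block. In M against F(OVX) it was 1 and became 0 with normexp and with 1 probe per gene and 2 without the filter, and in F(OVX) against F it was 0 and became 1 without the filter. For M against F on LFD it was 0 and became 1 with 75th percentile scaling. On HFD it was 2 and became 0 with normexp and 1 without the filter, with probes above background on all arrays, with 1 probe per gene, with the replicate block over slides and with the regional score. For F(OVX) against F on HFD it was 0 and became 1 without the filter. The probe gained without the filter was Hgf probe 2 in each case. The cause of the other changes was not tested. Leaving out single arrays gave counts from 0 to 2 for M, 0 to 0 for F, 0 to 1 for F(OVX), 0 to 2 for the diet effect in M against F, 1 to 2 in M against F(OVX), 0 to 0 in F(OVX) against F, 0 to 2 and 0 to 5 for M against F on LFD and HFD, and 0 to 0 for F(OVX) against F on both diets. The replicate block changed no call in F. Over single probes, 138 results had 3692 alternatives, of which 28 lost and 21 gained a call, and 0 reversed a called direction. The methods' t-test called 600, 177 and 251 of all probes in M, F and F(OVX), against 1104, 378 and 516 in limma, and 0 with an adjusted p below 0.05. Hgf and Tgfa lie close to background, which limits what can be said of them.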
